A study of Mus musculus with 4 samples.

Results

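The 10 genes Ccl2, Ccl7, Ccl12, Ccl8, Ccl3, Ccl4, Cxcl1, Cxcl2, Cxcl3 and Cxcl5 encode chemokines that draw monocytes and neutrophils, and they were followed by producing cell type in mouse intestine and brain. They were chosen by symbol from the 55450 features of the count tables, and all 10 were found, with at least 1 UMI each in every library. A UMI is a molecular tag that counts 1 captured RNA molecule once, so the counts do not depend on transcript length.

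Chemokines are small secreted proteins that form gradients and guide leukocytes through G protein-coupled receptors on the leukocyte surface. Ccl2, Ccl7 and mouse Ccl12 act through Ccr2, the receptor that brings inflammatory monocytes out of the bone marrow and into tissue. Mouse Ccl8 acts mainly through Ccr8, and Ccl3 acts through Ccr1 among others. Cxcl1, Cxcl2, Cxcl3 and Cxcl5 act through Cxcr2, the receptor that carries neutrophils into inflamed tissue. In the gut and the brain tissue macrophages, microglia, stromal cells and epithelium can all make them, and many of these genes are induced within minutes to hours of a stimulus, tissue handling included.

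The study profiled wild-type (WT) mice by droplet single-cell RNA sequencing, with 1 library for each of 4 groups: intestine after 1 week of NPs, untreated intestine, brain after 2 months of NPs, and untreated brain. NPs are not spelled out in the labels, which also give neither dose nor route nor the number of animals. The labels name BALB/c mice aged 5 weeks and ICR mice aged 6 months as sources without saying which strain gave which tissue, and the series text calls the gut samples colon. Time of treatment and tissue therefore cannot be told apart, and with 1 library a group no difference below has a replicate check; every interval covers counting error only.

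The 4 libraries held 11754 to 20368 barcodes, and 10556, 16855, 11942 and 11333 cells were kept from NPs intestine, untreated intestine, NPs brain and untreated brain, with median UMI counts of 6277, 2464, 4614 and 4996. The intestinal libraries stood apart in quality: 46.5% of the barcodes of NPs intestine and 16.7% of those of untreated intestine exceeded 20% mitochondrial UMIs, against 0.278% in NPs brain and 0.681% in untreated brain. Of all Hox UMIs, 9.80% came from posterior Hox genes in NPs intestine and 77.2% in untreated intestine, so the 2 samples differ in genes that mark the position along the gut, and position and treatment cannot be told apart. Any 2 libraries shared between 35 and 104 barcodes, at most 0.605% of the smaller one. Cell classes were named from marker genes and mean likeness to those markers only. No cells stayed unnamed in the brain, but 16.2% did in NPs intestine and 28.3% in untreated intestine.

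The genes lie on 2 chromosomes (GRCm38, GENCODE annotation). On chromosome 11, Ccl2 (82035571-82037453, plus strand), Ccl7 (82045712-82047525, plus), Ccl12 (82101845-82103400, plus) and Ccl8 (82115185-82116799, plus) sit within a short stretch, with gaps of 8258, 54319 and 11784 bases between neighbours. Ccl3 (83647844-83649355, minus) and Ccl4 (83662584-83664683, plus) follow 1531044 bases further along and lie 13228 bases apart. On chromosome 5 the order is Cxcl5 (90759360-90761624), Cxcl3 (90786103-90789600), Cxcl1 (90891241-90893115) and Cxcl2 (90903871-90905938), all on the plus strand. Neighbours did not always share a producing cell type: in the brain most Ccl12 UMIs lay in microglia and most Ccl8 UMIs in border-associated macrophages.

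In the intestine the producing cells differed between the libraries for almost every chemokine. In NPs intestine, macrophages were 3.31% of the kept cells and held 96.6% of the UMIs of Ccl12, 89.8% of Ccl8, 76.0% of Ccl3, 70.8% of Ccl2, 70.2% of Ccl7, 69.0% of Ccl4 and 65.4% of Cxcl2. Cxcl1 was the exception, with 33.9% of its UMIs in goblet cells, which were 26.1% of the kept cells, and 21.6% in macrophages. In untreated intestine the absorptive epithelium held 72.1% of the UMIs of Ccl7, 51.2% of Ccl8 and 40.2% of Ccl2, T cells held 72.9% of Ccl3 and 75.1% of Ccl4, and 51.5% of Cxcl1 and 23.0% of Cxcl2 were in cells that could not be named. Absorptive epithelium, T cells and unnamed cells were 17.7%, 16.6% and 28.3% of the kept cells of untreated intestine. Ccl12 had only 99 UMIs there, 44.4% of them in 19 monocytes. Kept cells of the untreated library included 14 macrophages, 0.0831% of cells. A further sub-cluster, M8, with Lyz2, Apoe, C1qa and C1qb among its leading genes, stayed unnamed; it held 2 NPs cells and 50 untreated cells. The number of macrophages depends on such naming, and these shares moved with cell composition as well as with levels. In what follows, the level of a gene in a class is given as CPM, its UMIs as a share of all UMIs of the class on the usual counts-per-million scale.

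**Figure D1:**
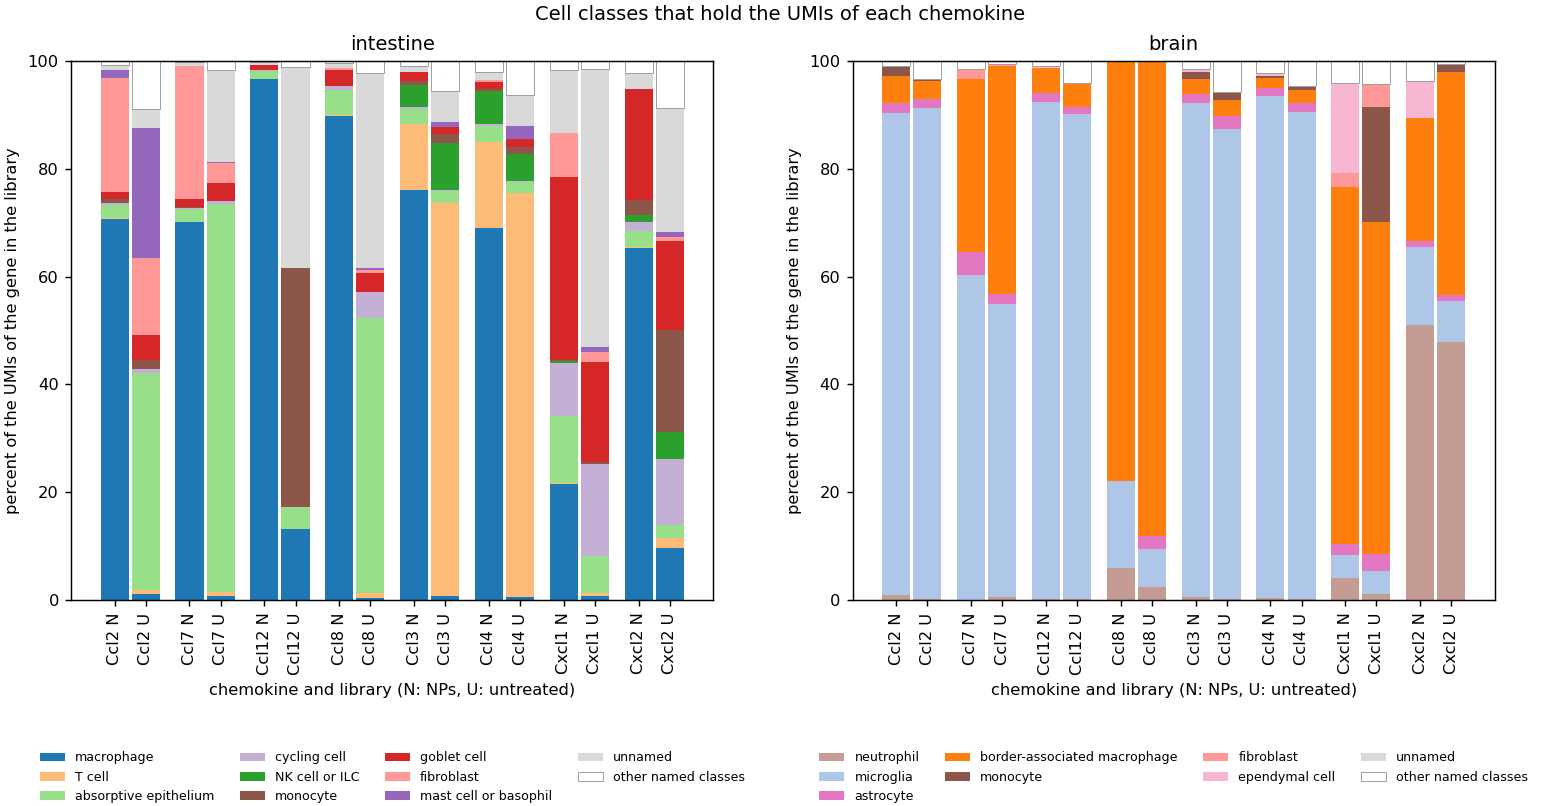
Share of the UMIs of each chemokine held by each cell class, as percent of the gene's UMIs in the kept cells of a library, NPs (N) left of untreated (U) for each gene. Macrophages hold most UMIs of the CC chemokines in NPs intestine, whereas microglia hold 87.2% to 93.2% of Ccl2, Ccl12, Ccl3 and Ccl4 in both brain libraries.

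**Figure D2:**
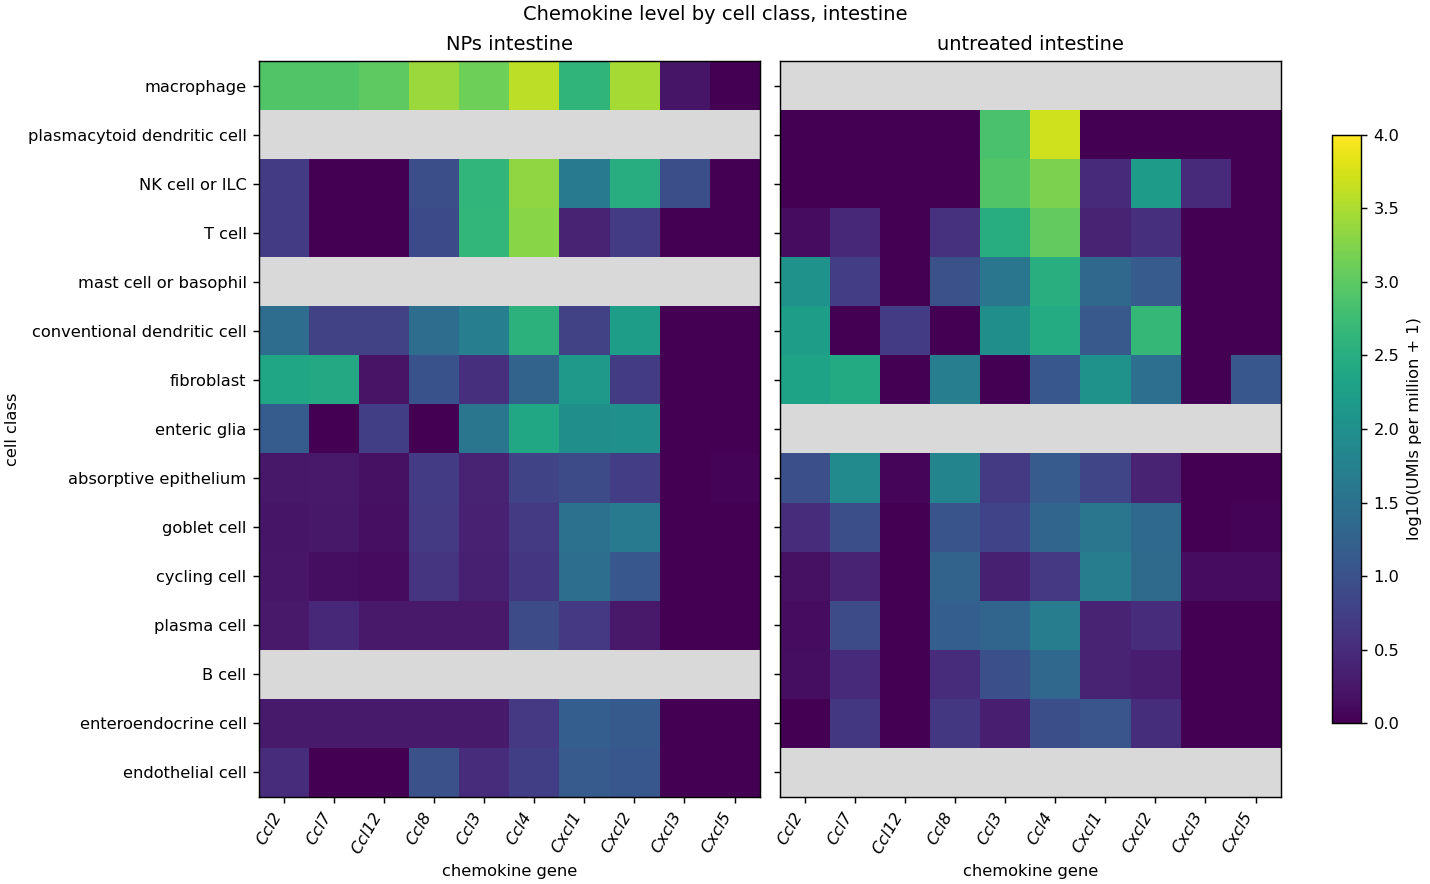
Level of the 10 chemokines in each intestinal cell class with at least 20 cells, as log10(CPM + 1), in NPs intestine (left) and untreated intestine (right). Grey marks classes with fewer cells in that library. Macrophages are the brightest class for most chemokines in NPs intestine, and Ccl3 and Ccl4 are bright in lymphoid classes of both libraries.

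The monocyte attractants were compared in intestinal macrophages, resident phagocytes marked by C1qa, C1qb and C1qc. The comparison rests on 349 macrophages of NPs intestine and 14 of untreated intestine, with median UMI counts of 3860 and 4624. The 50 untreated cells of the unnamed sub-cluster M8 are not among them; there Ccl2 had 0 UMIs, Ccl7 stood at 85.1 CPM, Ccl12 at 579 CPM, Ccl8 at 136 CPM, Ccl3 at 187 CPM and Ccl4 at 425 CPM. Ccl2, the main ligand of Ccr2, stood at 822 CPM in NPs macrophages and 85.5 CPM in untreated ones, a ratio of 9.62 (95% interval 4.41 to 26.3), but the untreated value rests on 6 UMIs in 2 cells. Ccl7 stood at 824 CPM against 285 CPM (ratio 2.89, 1.86 to 4.75), and 19 of the 20 untreated UMIs came from 1 cell. Ccl12 stood at 1008 CPM against 185 CPM (ratio 5.44, 3.17 to 10.2). Ccl8 had the widest gap of the group, 2481 CPM in NPs macrophages and 143 CPM in untreated ones (ratio 17.4, 9.45 to 36.3). None of these 4 intervals reached 1, but they cover counting error only and not the spread between the 14 untreated cells or between animals.

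Ccl3 and Ccl4, which attract monocytes, T cells and NK cells, were also higher in NPs macrophages. Ccl3 stood at 1308 CPM against 499 CPM in untreated macrophages (ratio 2.62, 1.88 to 3.78) and Ccl4 at 4035 CPM against 1098 CPM (ratio 3.68, 2.94 to 4.66). The neutrophil attractants differed less. Cxcl1 stood at 410 CPM against 200 CPM (ratio 2.05, 1.21 to 3.78) and Cxcl2 at 2896 CPM against 2110 CPM (ratio 1.37, 1.17 to 1.63). Cxcl3 gave 1 UMI in NPs macrophages and none in untreated ones, and Cxcl5 none in either, which allows up to 2.02 CPM in NPs macrophages and up to 42.8 CPM in untreated macrophages. Eligible for a count were genes with at least 20 UMIs in both libraries together. Of 8 such chemokines, 7 stood 2-fold or more higher in NPs macrophages and 0 stood 2-fold or more lower. Across all 6071 such genes the shares were 13.4% higher and 14.6% lower. The class sums were 1487158 UMIs in NPs macrophages and 70154 in untreated ones, so genes became eligible mainly through their NPs counts. Ratios of low genes rest on few untreated UMIs, and the 8 chemokines were not matched to the other genes in level. The median log2 ratio of the 8 chemokines was 1.70, against -0.03 for the 6071 genes.

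**Figure D3:**
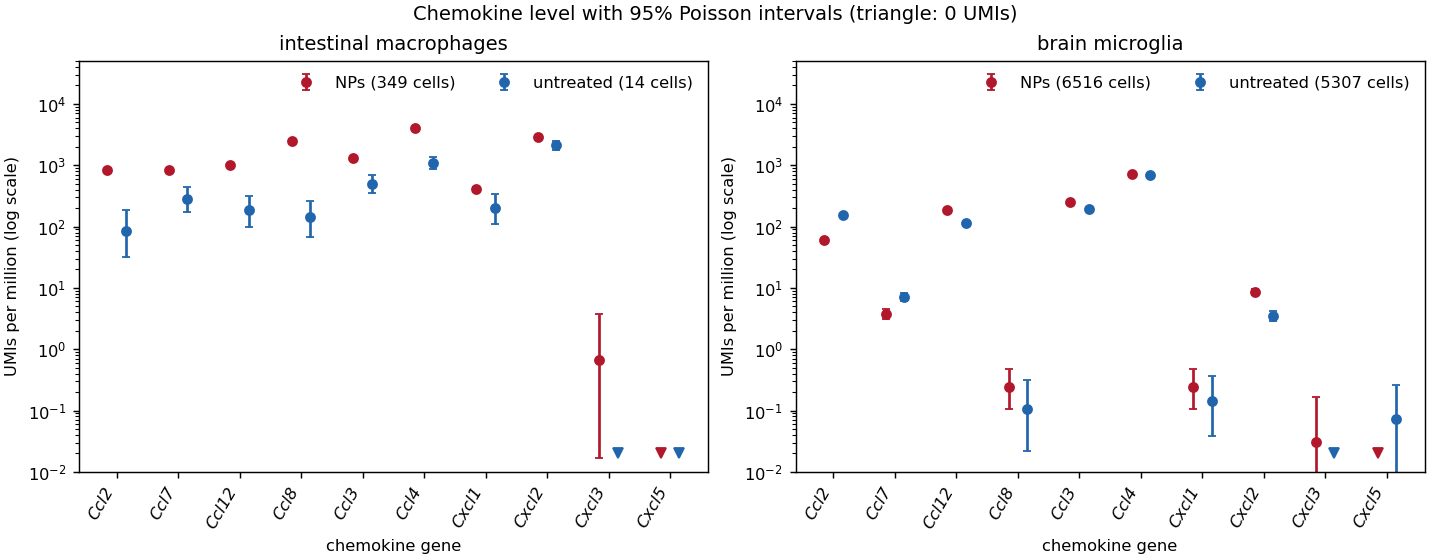
Level of the 10 chemokines in CPM (log scale) in intestinal macrophages (left, 349 NPs cells and 14 untreated cells) and brain microglia (right, 6516 NPs cells and 5307 untreated cells), NPs left of untreated. Bars are exact 95% Poisson intervals and triangles mark 0 UMIs. Ccl2 is higher in NPs macrophages and lower in NPs microglia.

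Macrophages fell into 5 sub-clusters, and only sub-cluster M5 held more than 4 untreated cells, 60 cells of NPs intestine and 8 of untreated intestine. Within M5, Ccl8 stood at 3580 CPM against 263 CPM (ratio 13.6, 7.39 to 28.5), Ccl2 at 826 CPM against 158 CPM (ratio 5.24, 2.38 to 14.4), Ccl12 at 1461 CPM against 341 CPM (ratio 4.28, 2.48 to 8.10) and Ccl4 at 4090 CPM against 1707 CPM (ratio 2.40, 1.87 to 3.13). The other members were within 2-fold there. Ccl3 stood at 1244 CPM against 840 CPM (ratio 1.48, 1.03 to 2.20), Ccl7 at 701 CPM against 499 CPM (ratio 1.41, 0.878 to 2.38) and Cxcl1 at 184 CPM against 158 CPM (ratio 1.17, 0.505 to 3.32). Cxcl2 was lower in M5, with 1563 CPM in NPs cells and 2363 CPM in untreated cells (ratio 0.661, 0.527 to 0.838). The differences of Ccl3, Ccl7 and Cxcl1, at least 2-fold over the whole class, were thus below 2-fold in the sub-cluster with most untreated cells. Without sub-cluster M2 the ratio was 1.75 for Ccl3, 1.23 for Cxcl1 and 0.913 for Cxcl2 (1598 CPM in NPs cells and 1749.7 CPM in untreated cells), and without sub-cluster M3 it was 1.89 for Ccl3 and 1.94 for Cxcl1.

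The chemokines were not spread evenly over the macrophages of NPs intestine. Sub-cluster M2 (93 cells) held 70.8% of the class's Cxcl1 UMIs, 61.4% of Cxcl2, 50.3% of Ccl4, 49.3% of Ccl3, 46.5% of Ccl7 and 45.6% of Ccl2. There Cxcl2 reached 5915 CPM, Ccl4 6745 CPM, Ccl2 1248 CPM and Cxcl1 964 CPM. Ccl8 had another distribution: sub-cluster M1 (100 cells) held 40.5% of its UMIs at 3843 CPM, and M2 only 18.6%. After thinning every cell to 1000 UMIs, which left 294 of the 349 cells, Ccl4 was found in 87.9% of the cells with Ccl3 and 39.9% of those without it. Ccl2 was found in 59.4% of the cells with Ccl7 and 23.6% of those without, and in 56.8% of the cells with Ccl12 and 20.1% of those without. Cxcl1 was found in 32.4% of the cells with Cxcl2 and 6.04% of those without. Ccl8 was found in 56.5% of the cells with Ccl7 and 32.0% of those without, but in 36.8% of the cells with Ccl12 and 38.2% of those without, and in 38.3% of the cells with Ccl2 and 37.5% of those without.

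Ccl4 was detected in 65.3% of NPs macrophages, Ccl3 in 59.0%, Cxcl2 in 53.0%, Ccl12 in 46.1%, Ccl2 in 43.3%, Ccl8 in 41.3%, Ccl7 in 31.8% and Cxcl1 in 26.1%. In plasma cells of the same library (120 cells, median 7289.5 UMIs) the shares were 5.00% for Ccl4, 0.833% each for Ccl3, Cxcl2, Ccl12, Ccl2 and Ccl8, 1.67% for Ccl7 and 3.33% for Cxcl1. In its absorptive epithelium (median 8930 UMIs), a class that held most Ccl7 and Ccl8 of untreated intestine, they were 5.22% for Ccl4, 1.54% for Ccl3, 0.601% for Ccl12, 0.992% for Ccl2, 3.81% for Ccl8 and 1.10% for Ccl7. The macrophage shares lay above those of both classes for each gene given, although the macrophages had fewer UMIs per cell.

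Several measures moved with the macrophage result, and their part in it was not tested. All 12 Hox UMIs of the untreated macrophages came from posterior Hox genes, against 12.7% of 205 Hox UMIs in NPs macrophages. Genes of the immediate-early and heat-shock list, which tissue handling can induce, summed to 13863 CPM in NPs macrophages and 8410 CPM in untreated ones; 5 of 13 were at least 2-fold higher and 0 lower, led by Ier2, Jund, Junb and Dusp1. The 10 macrophage markers summed to 17793 CPM in NPs cells and 9208 CPM in untreated cells, monocyte markers to 611 CPM and 1525 CPM, and absorptive markers to 2102 CPM and 171 CPM. Of the 7 neutrophil markers, 6 were at 0 in both libraries.

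The genes around the chemokines did not move as 1 group in these macrophages. Of 3 receptors tested, 0 were at least 2-fold higher and 2 lower: Ccr2 stood at 132 CPM against 356 CPM in untreated macrophages and Ccr1 at 127 CPM against 257 CPM. Of 3 inducing cytokines, 0 were higher and 1 lower, Il1a with 17.5 CPM against 71.3 CPM; Il1b, the cytokine whose signalling induces many chemokines, stood at 2064 CPM against 4062 CPM and Tnf at 267 CPM against 171 CPM. Of 13 NF-kB feedback genes, which the NF-kB transcription factor induces together with chemokines, 1 was higher (Icam1, 206 CPM against 99.8 CPM) and 0 lower. Of 11 other chemokines, 5 were higher and 3 lower. Pf4 stood at 459 CPM and had 0 UMIs in the 14 untreated cells, at least 10.7-fold higher with 3 counts as the floor for the untreated class; Ccl6 stood at 288 CPM against 28.5 CPM (2 UMIs, ratio 10.1, 2.78 to 83.6). Cxcl11 and Cxcl14 were lower, with 59.8 CPM against 314 CPM and 11.4 CPM against 99.8 CPM. Of 7 interferon response genes, 1 was higher (Irf7, 239 CPM against 57.0 CPM) and 1 lower (Rsad2, 58.5 CPM against 200 CPM).

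In the absorptive epithelium, the cells that line the gut surface, Ccl2, Ccl7 and Ccl8 ran the other way. Ccl7 stood at 0.892 CPM (42 UMIs) in 3829 NPs cells and 77.9 CPM (2002 UMIs) in 2981 untreated cells, 87.4-fold (64.4 to 122) higher in untreated cells. Ccl8 stood at 4.04 CPM against 63.1 CPM, 15.6-fold (13.5 to 18.3) higher in untreated cells. Ccl2 stood at 0.828 CPM against 8.37 CPM, 10.1-fold (7.16 to 14.6) higher in untreated cells. Ccl3 and Ccl4 were also lower in NPs cells, with 1.51 CPM against 3.81 CPM and 5.65 CPM against 12.9 CPM. T cell markers in this class summed to 3.29 CPM in NPs cells and 85.2 CPM in untreated cells. The part of T cell RNA in its Ccl3 and Ccl4 was not tested. Cxcl2 was higher, with 4.27 CPM against 1.40 CPM (ratio 3.05, 2.13 to 4.47), and so was Ccl12, with 23 UMIs against 4 (ratio 3.14, 1.07 to 12.5). Cxcl1 stood at 7.48 CPM against 5.96 CPM. In all, 2 of 8 chemokines passed 2-fold upwards and 5 downwards, where 36.5% and 9.95% of 15161 genes did. The 8 chemokines had a median log2 ratio of -1.26, against 0.63 for all genes. The 2 libraries filled different clusters of this class, clusters 0 and 10 in NPs intestine and clusters 26 and 28 in untreated intestine, and 8.59% of Hox UMIs in NPs cells and 88.3% in untreated cells came from posterior Hox genes, so gut position and treatment cannot be told apart here. Other intestinal classes also had chemokines at least 2-fold lower in NPs cells and 0 higher. These were 5 of 7 in goblet cells (8.38% of 15000 genes lower) and 4 of 4 in plasma cells (11.6% of 8247). They were 2 of 5 in cycling cells (5.15% of 12995) and 2 of 4 in conventional dendritic cells (10.6% of 2758). In NK cells or innate lymphoid cells 0 of 3 passed 2-fold either way, and in enteroendocrine cells 0 of 1.

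In the absorptive epithelium of the untreated gut, Ccl7 and Ccl8 stood higher in cluster 28 than in cluster 26. In cluster 28 (758 cells, median 12298.5 UMIs) Ccl7 stood at 144 CPM and was found in 34.4% of cells. Ccl8 stood there at 89.3 CPM and was found in 36.9% of cells. In cluster 26 (2218 cells, median 2348.5 UMIs) Ccl7 stood at 36.8 CPM and Ccl8 at 47.0 CPM. Unnamed cells of untreated intestine held a further 17.2% of its Ccl7 UMIs and 36.3% of its Ccl8 UMIs. In enteroendocrine cells of the same library, chosen as a comparison after their values were seen, Ccl7 and Ccl8 both stood at 3.45 CPM (3 UMIs each), and in plasma cells at 7.18 CPM and 14.7 CPM. Macrophage markers summed to 70.1 CPM in cluster 28, with Adgre1 and Fcgr1 at 0, and to 57.9 CPM in NPs and 63.0 CPM in untreated absorptive cells as a whole; fibroblast markers summed to 2.03 CPM in cluster 28. After thinning to 1000 UMIs, Ccl8 was found in 8.70% of the untreated absorptive cells with Ccl7 and 4.95% of those without, and Ccl2 in 6.83% and 0.312%. The interferon response list also differed: 10 of 10 genes were at least 2-fold lower in NPs cells, led by Isg15 (120 CPM against 2128 CPM), and the list summed to 984 CPM against 9822 CPM. Of the 13 immediate-early and heat-shock genes, 12 were at least 2-fold higher in NPs cells.

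Fibroblasts, the second source of Ccl2 and Ccl7 in NPs intestine, differed less between the libraries. Ccl2 stood at 220 CPM in 440 NPs fibroblasts and 210 CPM in 127 untreated fibroblasts (ratio 1.05, 0.818 to 1.36), Ccl7 at 259 CPM against 276 CPM (ratio 0.940, 0.754 to 1.18) and Cxcl1 at 141 CPM against 108 CPM (ratio 1.31, 0.931 to 1.89). Ccl8 stood at 9.05 CPM (15 UMIs) against 49.7 CPM (18 UMIs). Of 5 chemokines tested 0 were at least 2-fold higher and 1 lower, against 16.7% and 5.05% of 9290 genes. The class held 2 clusters. In cluster 12 (195 and 123 cells), which held all of its Ccl2, the level was 365 CPM against 212 CPM (ratio 1.72, 1.34 to 2.24), Ccl7 stood at 428 CPM against 279 CPM (ratio 1.53, 1.23 to 1.93) and Cxcl1 at 207 CPM against 109 CPM (ratio 1.90, 1.35 to 2.75); cluster 9 held 245 NPs cells and 4 untreated cells and no Ccl2. Fibroblast Ccl2 came from few cells: 3 cells held 181 of the 365 UMIs in NPs fibroblasts, and 3 held 55 of the 76 in untreated ones.

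Most Ccl3 and Ccl4 UMIs of the untreated gut lay in T cells, a far larger class there than the 14 macrophages. By the levels given above, Ccl3 was higher in those macrophages than in untreated T cells, and Ccl4 was close. The 19 untreated monocytes, 0.113% of cells, held 1.59% of the Ccl3 UMIs and 1.44% of the Ccl4 UMIs. T cells held Ccl4 at 1952 CPM in 249 NPs cells and 1113 CPM in 2802 untreated cells (ratio 1.75, 1.66 to 1.85), and Ccl3 at 441 CPM against 308 CPM (ratio 1.43, 1.27 to 1.61). T cells were 2.36% and 16.6% of the cells, and the libraries filled different clusters of the class. Cluster 11 held 138 of the NPs and 364 of the untreated T cells, cluster 15 held 21 and 750, and cluster 24, with 2 UMIs of Ccl3 in its untreated cells and 0 in its NPs cells, held 7 and 742. In cluster 20 (83 and 946 cells) the levels were close, with Ccl4 at 2136 CPM against 2129 CPM and Ccl3 at 457 CPM against 463 CPM. In cluster 11 Ccl4 stood at 2242 CPM against 1088 CPM and Ccl3 at 493 CPM against 417 CPM. Of 4 tested chemokines 1 was at least 2-fold higher (Ccl8, 5 UMIs against 29, ratio 2.59, 0.782 to 6.76) and 0 lower in NPs T cells, against 13.4% and 5.98% of 11665 genes. In NK cells or innate lymphoid cells (89 and 158), Ccl4 stood at 2146 CPM against 1601 CPM (ratio 1.34) and Ccl3 at 424 CPM against 827 CPM (ratio 0.513, 0.409 to 0.638). The 20 plasmacytoid dendritic cells of untreated intestine reached 5093 CPM of Ccl4, found in 90.0% of them. Among 414 mast cells or basophils of that library Ccl2 stood at 114 CPM and Ccl4 at 338 CPM.

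The neutrophil attractants Cxcl1 and Cxcl2 had epithelial as well as myeloid sources. Goblet cells, the mucus producers, held Cxcl1 at 30.0 CPM in NPs intestine and 35.8 CPM in untreated intestine (ratio 0.840, 0.747 to 0.945) and Cxcl2 at 42.5 CPM against 21.9 CPM (ratio 1.94, 1.70 to 2.23). The NPs goblet cells lay in clusters 4 and 5 (1203 and 1556 cells, against 1 and 11 untreated cells) and the untreated ones almost wholly in cluster 21 (0 and 1434 cells), where Cxcl1 stood at 33.8 CPM and Cxcl2 at 19.6 CPM. In cluster 6 of untreated intestine, 1442 unnamed cells with Wfdc2 and Aqp4 among their leading genes, Cxcl1 stood at 31.3 CPM and Ccl8 at 29.2 CPM. Cycling cells, 1.71% of the kept cells of untreated intestine, held 17.0% of its Cxcl1 UMIs and 12.3% of its Cxcl2 UMIs. Goblet cells, 8.58% of those cells, held 18.6% and 16.5%. In NPs intestine cycling cells held 9.89% of Cxcl1 and 1.76% of Cxcl2. The myeloid levels were far higher, and macrophages held 65.4% of the Cxcl2 UMIs of NPs intestine. In neutrophils and monocytes the levels rest on few cells. Cxcl2 reached 11311 CPM in 5 neutrophils of NPs intestine, and 9156 CPM in 5 NPs monocytes against 3231 CPM in 19 untreated ones. Cxcl3 and Cxcl5 were near absent, with 4 and 5 UMIs of Cxcl3 and 7 and 14 of Cxcl5 in all kept cells of NPs and untreated intestine.

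Promoter sequence was read for the neutrophil attractants because Cxcl1, Cxcl2 and Cxcl3 are textbook NF-kB target genes yet gave very different UMI counts. RefSeq promoters (GRCm38.p6, 250 bases before to 50 after the start) were at hand for Cxcl1, Cxcl2, Cxcl3, Ccl12, Ccl8 and Ccl3. The sequence GGAATTTCC, searched on both strands as a form of the NF-kB motif, was found in 3 of these 6 and in 0.317% of 32817 promoters. It lies 70 to 62 bases before the start in Cxcl1, 96 to 88 in Cxcl2 and 72 to 64 in Cxcl3, each time on the plus strand. The 3 promoters are shown 5′ to 3′ with that motif in capitals.
Cxcl1, chr5:90890995-90891294, plus strand: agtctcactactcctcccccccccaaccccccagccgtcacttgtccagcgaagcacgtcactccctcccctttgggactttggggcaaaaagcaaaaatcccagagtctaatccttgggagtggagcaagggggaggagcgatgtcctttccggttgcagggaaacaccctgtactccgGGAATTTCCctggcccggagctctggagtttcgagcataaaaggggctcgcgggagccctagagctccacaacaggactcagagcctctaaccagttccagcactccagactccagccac
Cxcl2, chr5:90903649-90903948, plus strand: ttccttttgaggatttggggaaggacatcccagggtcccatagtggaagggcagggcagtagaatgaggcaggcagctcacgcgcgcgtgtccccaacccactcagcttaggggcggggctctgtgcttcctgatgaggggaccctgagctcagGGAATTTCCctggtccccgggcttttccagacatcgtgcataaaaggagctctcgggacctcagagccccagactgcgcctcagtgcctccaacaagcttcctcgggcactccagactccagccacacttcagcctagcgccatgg
Cxcl3, chr5:90785851-90786150, plus strand: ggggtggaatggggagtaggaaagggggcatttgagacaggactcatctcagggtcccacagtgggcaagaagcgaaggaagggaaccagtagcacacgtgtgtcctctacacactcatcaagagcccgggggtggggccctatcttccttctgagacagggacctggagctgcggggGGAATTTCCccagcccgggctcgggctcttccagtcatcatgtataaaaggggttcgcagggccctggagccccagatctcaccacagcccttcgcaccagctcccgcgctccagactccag
TGANTCA, the AP-1 motif, was in 0 of the 6 and in 7.81% of all promoters. GAAANNGAA, a motif of interferon regulatory factors, was in 1 of the 6 (Ccl3, minus strand) and in 8.55% of all promoters. A match describes letters only, and Cxcl3, with the same 9 letters as Cxcl1 and Cxcl2, gave no more than 12 UMIs in any library.

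In the brain, microglia were 54.6% and 46.8% of the kept cells and held most UMIs of several chemokines in both libraries. They held 89.4% of the Ccl2 UMIs in NPs brain and 91.1% in untreated brain, 92.3% and 89.9% of Ccl12, 91.8% and 87.2% of Ccl3, 93.2% and 90.5% of Ccl4, and 60.3% and 54.4% of Ccl7. The Ccl7 shares lay close to the microglial share of cells. Border-associated macrophages sit at the meninges and vessels and were 0.318% and 0.476% of cells. They held 78.0% and 88.1% of Ccl8, 66.3% and 61.7% of Cxcl1, and 32.1% and 42.3% of Ccl7. Neutrophils held 51.0% and 47.8% of Cxcl2. The producers of these genes were thus the same classes in both brain libraries, unlike in the intestine.

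**Figure D4:**
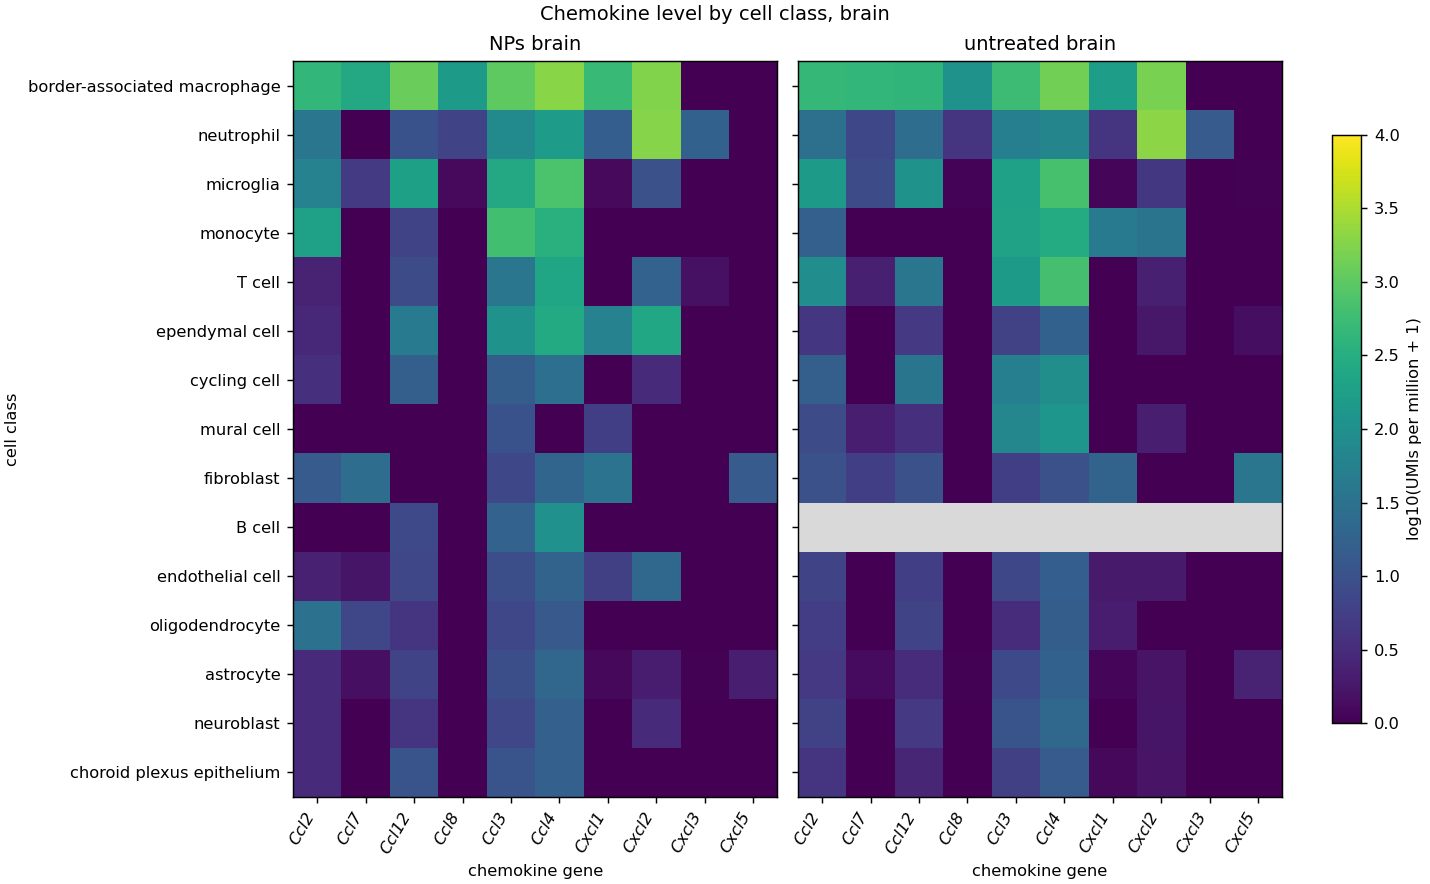
Level of the 10 chemokines in each brain cell class with at least 20 cells, as log10(CPM + 1), in NPs brain (left) and untreated brain (right). Ccl8 and Cxcl1 are brightest in border-associated macrophages and Cxcl2 in neutrophils and border-associated macrophages.

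Microglia, the resident macrophages of the brain, numbered 6516 in NPs brain and 5307 in untreated brain, with median UMI counts of 4705 and 4939. Ccl2 was lower after NPs, at 59.3 CPM in NPs microglia and 152 CPM in untreated microglia, 2.57-fold (2.43 to 2.71) higher in untreated cells. Ccl7 stood at 3.80 CPM against 7.10 CPM, 1.87-fold (1.49 to 2.36) higher in untreated cells. Ccl12, the third Ccr2 ligand, ran the other way, with 184 CPM against 113 CPM (ratio 1.63, 1.56 to 1.70). Ccl3 stood at 255 CPM against 195 CPM (ratio 1.31, 1.27 to 1.36) and Ccl4 at 731 CPM against 689 CPM (ratio 1.06, 1.04 to 1.08). Cxcl2, low in these cells, stood at 8.68 CPM against 3.50 CPM (ratio 2.48, 1.97 to 3.15), but its log2 ratio of 1.31 fell below 2-fold, to 0.89, after thinning to 1000 UMIs a cell. Of 6 tested chemokines 1 was at least 2-fold higher and 1 lower in NPs microglia, against 2.28% and 4.04% of 16876 genes, with median log2 ratios of 0.24 and 0.01.

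The shares of microglia with a UMI were 26.9% in NPs and 27.0% in untreated brain for Ccl4, 19.2% and 16.9% for Ccl3, 19.0% and 23.8% for Ccl12, and 7.06% and 13.3% for Ccl2. In neuroblasts (medians 6008 and 6384 UMIs), which should lack these genes, the shares were 9.72% (14 cells) and 23 of 191 cells for Ccl4, 4.17% and 7.33% for Ccl3, 2.08% and 2.09% for Ccl12, and 1.39% and 3.66% for Ccl2. After thinning to 1000 UMIs the microglial shares were 14.3% and 14.7% for Ccl4, 8.71% and 7.48% for Ccl3, 6.40% and 7.27% for Ccl12 and 2.89% and 6.07% for Ccl2, and the neuroblast shares 2.29% and 3.37%, 0% and 1.12%, 0.763% and 0%, and 0% and 0.562%. For Ccl12 the share ran against the CPM, and no order is read from it.

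The 6 microglial clusters showed where each gene was made. Ccl2 was lower in NPs cells of every cluster, with 8.45 CPM against 16.3 CPM in cluster 4, 6.13 against 20.0 CPM in cluster 5, 36.7 against 85.3 CPM in cluster 6, 142 against 203 CPM in cluster 7, 97.4 against 255 CPM in cluster 9 and 219 against 597 CPM in cluster 14. Clusters 9 and 14, which carry most immediate-early RNA, held 65.2% of microglial Ccl2 UMIs in NPs brain and 75.1% in untreated brain. Their immediate-early and heat-shock sums were close between libraries, 19737 and 21923 CPM in cluster 9 and 45944 and 45671 CPM in cluster 14. Outside both clusters Ccl2 stood at 27.3 CPM against 52.1 CPM, 1.91-fold higher in untreated cells. Within clusters 9 and 14 together it stood at 158 CPM against 418 CPM, a gap as wide as over the whole class. The libraries filled clusters 4 (3268 and 487 cells) and 5 (500 and 2326 cells) unevenly: Ccl2 was 1.66-fold higher in untreated cells without cluster 4 (interval 1.57 to 1.76) and more so without cluster 5 (interval 3.41 to 3.80).

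Ccl12 was concentrated in cluster 7, whose leading genes include Ifi44, Lyz2 and Cd74. There it stood at 1631 CPM in 371 NPs cells and 821 CPM in 140 untreated cells (ratio 1.99, 1.84 to 2.15), and the cluster held 56.7% and 23.7% of the microglial Ccl12 UMIs. Ccl12 itself was left out of the clustering. Outside cluster 7 it stood at 85.0 CPM against 89.2 CPM (ratio 0.954, 0.902 to 1.01), so the class difference lay in that cluster. Few cells carried it: without the 1% of microglia with most Ccl12 UMIs the class log2 ratio was -0.03, against 0.70 with them. In cluster 7 the top 3 cells held 909 of 3457 UMIs in NPs brain and 324 of 751 in untreated brain. Ccl7 was also higher in cluster 7, at 34.0 CPM against 15.3 CPM (72 and 14 UMIs, ratio 2.22, 1.24 to 4.26), while it was lower in NPs cells outside it, 1.74 CPM against 6.83 CPM. Interferon response genes summed to 1990 CPM against 1252 CPM in cluster 7, and over all microglia 7 of 10 passed 2-fold upwards and 0 downwards in NPs brain, led by Rsad2, Oasl2, Ifit1 and Mx1.

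Most microglial Ccl3 and Ccl4 UMIs lay in the immediate-early clusters 9 and 14. Ccl4 was also among the leading genes of cluster 7, whose immediate-early and heat-shock sums were 4429 and 4217 CPM in NPs and untreated cells. In cluster 14 Ccl3 stood at 1035 CPM against 716 CPM (ratio 1.44, 1.38 to 1.52) and Ccl4 at 3028 CPM against 2442 CPM (ratio 1.24, 1.21 to 1.27). In cluster 9 Ccl3 stood at 554 CPM against 401 CPM and Ccl4 at 1737 CPM against 1644 CPM. In cluster 4 they stood at 24.0 CPM against 18.3 CPM and 39.3 CPM against 29.5 CPM. Clusters 9 and 14 together held 76.2% and 77.4% of microglial Ccl3 and 79.8% and 80.4% of Ccl4. The class ratios depended on the uneven clusters: without cluster 5 they were 0.925 for Ccl3 and 0.739 for Ccl4, lower in NPs cells, and without cluster 4 they were 2.07 and 1.70. Enzymatic dissociation is known to induce both chemokines together with immediate-early genes in microglia; its part in these levels was not tested.

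**Figure D5:**
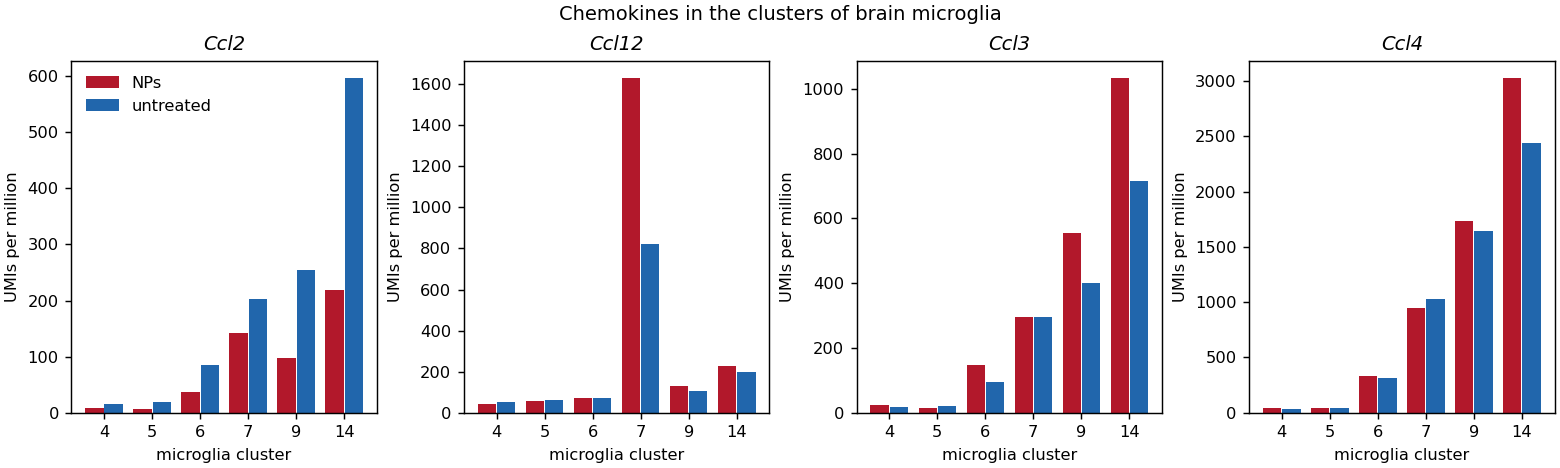
Ccl2, Ccl12, Ccl3 and Ccl4 in CPM in each of the 6 microglial clusters, NPs bars left of untreated bars, each bar the sum over the cells of 1 library. Ccl2 is lower in NPs cells of every cluster, and the Ccl12 gap is widest in cluster 7.

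Among the genes around the chemokines in microglia, of 5 receptors tested 1 was at least 2-fold higher in NPs brain (Ccr1, 5.97 CPM against 2.18 CPM in untreated brain) and 0 lower. Of 7 inducing cytokines 1 was higher (Il17a, 35 UMIs against 2) and 0 lower, with Il1b at 49.9 CPM against 72.4 CPM and Tnf at 49.6 CPM against 73.3 CPM. Of 13 NF-kB feedback genes 0 were at least 2-fold higher or lower. Of 16 other chemokines 4 were higher and 1 lower. The 4 were Cxcl13 (11.9 CPM against 0.321 CPM), Cxcl9 (152 UMIs against 7), Cxcl11 (11.5 CPM against 0.999 CPM) and Ccl5 (39.7 CPM against 8.17 CPM), which draw lymphocytes. T cells were 3.50% of NPs brain cells and 1.61% of untreated ones, with Il17a at 1171 CPM against 83.0 CPM and Ccl5 at 5112 CPM against 6317 CPM; the part of T cell RNA in these microglial counts was not tested.

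Border-associated macrophages had the highest level of several members in the brain, in 38 NPs cells and 54 untreated cells. The class holds sub-cluster M2 (13 and 20 cells), with all 8 markers raised, and sub-cluster M3 (25 and 34 cells), with 5 of 8 raised, 1 of them (Pf4) among its 10 leading genes, which are headed by the MHC class II genes Cd74, H2-Aa, H2-Ab1 and H2-Eb1. Ccl12 stood at 1232 CPM against 419 CPM (ratio 2.94, 2.41 to 3.61) and was found in 68.4% and 42.6% of cells. Cxcl1 stood at 501 CPM against 169 CPM (ratio 2.97, 2.16 to 4.12), but in 6 and 9 cells. Ccl2 stood at 442 CPM against 462 CPM (ratio 0.956, 0.744 to 1.22), but at 330 CPM against 796 CPM in M2 and 482 CPM against 276 CPM in M3. Ccl3 stood at 1021 CPM against 544 CPM (ratio 1.88, 1.55 to 2.28), Ccl4 at 1979 CPM against 1422 CPM, Cxcl2 at 1768 CPM against 1559 CPM, Ccl7 at 262 CPM against 451 CPM and Ccl8 at 153 CPM (3 cells) against 108 CPM (7 cells). Of 8 tested chemokines 2 were at least 2-fold higher and 0 lower, against 5.46% and 4.76% of 4305 genes. Markers of these macrophages summed to 3701 CPM in NPs cells and 5421 CPM in untreated cells, and microglial markers to 3098 CPM and 3568 CPM. Cxcl13, a B cell attractant, stood at 638 CPM and had 0 UMIs in the untreated cells, at least 73.1-fold higher with 3 counts as the floor for the untreated class.

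Brain neutrophils, 123 in NPs brain and 84 in untreated brain, carried Cxcl2, a ligand of their own receptor, at 1849 CPM against 1982 CPM (ratio 0.933, 0.843 to 1.03). Their sub-clusters differed widely in it: Cxcl2 stood at 4379.7 CPM against 3931 CPM in M0, 1624 CPM against 1219 CPM in M1 and 840 CPM against 42.1 CPM in M5, where 3 NPs cells held 84 of 100 UMIs. Sub-cluster M0 held 48 of the NPs cells and 58 of the untreated ones, and outside it Cxcl2 stood at 949 CPM against 260.0 CPM (ratio 3.65, 2.66 to 5.13). Ccl4 stood at 156 CPM against 64.2 CPM (85 and 20 UMIs, ratio 2.43, 1.48 to 4.18). Cxcl3 was found mostly here, with 9 of its 12 UMIs in NPs brain and all 4 in untreated brain. Of 4 tested chemokines 1 was at least 2-fold higher and 0 lower, against 2.78% and 12.5% of 4356 genes. The receptor Cxcr2 stood at 798 CPM against 694 CPM in these cells, and Ccr2 was highest among brain classes in monocytes, at 728 CPM in 23 NPs cells and 777 CPM in 55 untreated cells. These monocytes themselves held Ccl3 at 605 CPM (108 UMIs) against 88 UMIs in the untreated monocytes and Ccl2 at 190.4 CPM (34 UMIs) against 15.9 CPM (7 UMIs).

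Brain T cells, 418 and 182, had lower levels of Ccl4 and Ccl3 after NPs: Ccl4 stood at 221 CPM against 663 CPM, 3.00-fold (2.64 to 3.41) higher in untreated cells, and Ccl3 at 36.6 CPM against 148 CPM, 4.05-fold (3.00 to 5.50) higher in untreated cells. The share of T cells with a Ccl4 UMI was 26.8% and 27.5%, and 3 untreated cells held 69 of the 116 Ccl3 UMIs. Of 5 tested chemokines 1 was at least 2-fold higher and 4 lower, against 6.66% and 2.12% of 9397 genes. The other 3 rest on 1 or 2 cells: 71 Ccl2 UMIs and 28 Ccl12 UMIs came from 2 untreated cells each, and 35 Cxcl2 UMIs from 1 NPs cell. Markers of NK cells or innate lymphoid cells summed to 457 CPM in NPs T cells and 778 CPM in untreated ones, and microglial markers to 1675 CPM and 1132 CPM; their part in these levels was not tested. In ependymal cells Cxcl2 stood at 245 CPM in 49 NPs cells against 0.808 CPM in 274 untreated ones, but 135 of its 136 UMIs lay in 3 cells, and neutrophil markers summed to 1644 CPM against 46.1 CPM in that class. Cxcl5 gave 25 and 44 UMIs in NPs and untreated brain, 23 and 33 of them in astrocytes.

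Across class and library sums the genes closest to each chemokine, by Pearson correlation of log2(CPM + 10), are given as a description, since the points share libraries and depth. Ccl3 and Ccl4 were each other's closest gene in both tissues, with r = 0.976 over 24 sums in the intestine and 0.946 over 29 in the brain. Ccl12 was closest to Fcrls (r = 0.991) in the intestine and C3ar1 (0.915) in the brain, Ccl8 to Pf4 and then Fcrls (0.894 for Fcrls) in the intestine, Ccl7 to Itgb5 (0.931) in the intestine and Cd209f (0.943) in the brain, and Cxcl2 to Tcirg1 (0.859) in the intestine and Lilrb4a (0.890) in the brain. Ccl2 was closest to Renbp (0.878) in the intestine and Gm26522 (0.902) in the brain, and Cxcl1 to Hacd4 (0.873) in the intestine and Ms4a7 (0.821) in the brain.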

How the data were processed

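Single cells from mouse intestine and brain were sequenced with 10x 3′ chemistry, and the deposited matrices hold UMI counts per gene and barcode, made by the authors with Cell Ranger 5.0.1 on GRCm38, per the file headers and, for the version, the submitters' processing notes. Per the labels' protocols, tissue was dissociated with enzymes and dead cells were removed with beads. Barcodes below 500 UMIs or 200 genes, or with a mitochondrial share above 20%, were dropped from these counts. Scrublet marked 2.03% and 2.87% of barcodes in NPs and untreated brain, but 0% and 0.0354% in the intestine, where it had not worked; there cells with a score above 0.25 were removed instead.

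Each tissue was clustered with scanpy 1.11.5 (2000 variable genes without the 10 chemokines, 30 components, 15 neighbours, resolution 1), and myeloid cells were clustered again (sub-clusters M). A cluster was named where at least 3 markers of a class were 2-fold raised and its score reached 0.4; this score limit was set after seeing the data. Counts were summed per class and library and divided by the class total. Ratios carry conditional binomial, levels Poisson and shares binomial exact 95% intervals, all for counting error only. With 1 library a group, no p-value was computed. A gene was compared with at least 20 UMIs in both libraries together and counted at 2-fold, and a count of 0 was given a floor of 3 counts. The code was tested on simulated data. Of each list up to 4 genes with the largest ratios are named; Il1b and Tnf, and classes under 20 cells, were added after their values were seen. The chemokines and the lists were chosen with earlier results of these data known. In all, 13 alternatives were planned and 1 was added after seeing the data. Other tools were Python 3.11.15, numpy 2.4.6, scipy 1.17.1 and pandas 2.3.3.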

Additional observations from a re-analysis of the deposited data

Results flagged for a closer look

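Ccl2 moved in opposite directions in intestinal macrophages and brain microglia. Its log2 ratio of NPs over untreated was 3.27 in intestinal macrophages, where the untreated value rests on 6 UMIs in 14 cells, and -1.36 in brain microglia. Macrophages held 70.8% of the Ccl2 UMIs in NPs intestine but 1.12% in untreated intestine. Absorptive epithelium held 40.2% in untreated intestine, and its Ccl2 was lower in NPs cells, as in microglia. The difference between the macrophage and microglia ratios was not tested: each rests on 1 library a group, and the tissues also differ in the time of treatment.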

How the results depend on the processing

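The count of chemokines at least 2-fold higher in intestinal macrophages ran from 6 to 8 (7 as reported) over 13 other settings and 1 chosen after seeing the data (all myeloid cells together), and 0 were lower under each. In microglia 1 was lower under each alternative run, but the count of 1 higher, Cxcl2, became 0 after thinning to 1000 UMIs a cell and 0 with the mean over cells of CPM (log2 ratios 0.89 and 0.87, against 1.31). Of 291 single log2 ratios under alternatives, 287 kept their direction. The 4 others were Ccl12 in microglia (-0.03 without the 1% of cells with most of its UMIs, 0.70 as reported), Ccl8 in border-associated macrophages (-1.19 under the same setting, 0.50 as reported), Cxcl1 in goblet cells (0.09 thinned, -0.25 as reported) and Cxcl2 in brain neutrophils (0.15 median-centred, -0.10 as reported); the cause was not tested beyond the settings' own construction. The log2 ratio of intestinal macrophage Ccl2 ran from 1.54 to 6.09 and of Ccl12 from 0.65 to 4.06, and microglial Ccl2 from -1.99 to -1.25. Untreated intestinal macrophages numbered 14 to 50 under the alternatives that named macrophages, and all untreated myeloid cells together 127. No paired analysis was possible because each group is 1 library.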
